A study of Mus musculus with 9 samples.

Results

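The mitochondrial carriers were taken from jejunal arrays of 9 mice as every gene whose symbol begins with Slc25a, plus the uncoupling proteins Ucp1, Ucp2 and Ucp3. This gave 26 probes for 25 genes, of 15674 genes that the array files name by a symbol. Slc25a3 had 2 probes and the other 24 genes had 1 each. The mice were males of the outbred stock OF1, aged 7 weeks. They came from generation 3 of families kept on a feed named B, K or G, with 3 mice on each, and 1 mouse was hybridised per array. The trial was set up around a maize diet, but the sources used here do not say which letter stands for which feed, so no feed was taken as a control. All mice shared a light and dark cycle of 12 h each, had lost access to food shortly before sampling, and were sampled at times of day that were not randomised. Each sample was a short piece of whole gut wall from the middle of the small intestine, so that fewer cells of a type and less RNA per cell cannot be told apart. Detection means a signal-to-noise ratio that reached 3, the limit set by the manufacturer, and levels are log2 of the quantile-normalised signal.

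Mitochondrial carriers sit in the inner membrane of the mitochondrion, which is closed to charged molecules, and let a substrate cross it, often in exchange for another. They are made in the cytosol, pass the outer membrane through the TOM complex and are inserted by the TIM22 complex. The family serves ATP export, phosphate uptake, the shuttles that bring reducing power into the matrix, citrate export for fat synthesis, fatty acid entry as acylcarnitine, and the supply of metals and cofactors. Enterocytes, the absorptive cells of the jejunum, burn glutamine and glutamate and make citrulline from ornithine, a route that needs carriers for glutamate, aspartate and ornithine.

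The stretches before the gene starts are shown for 4 members, which cover a citrate carrier with many matches, an acylcarnitine and an ADP/ATP carrier detected in every mouse, and a carrier detected in none. They are RefSeq sequences of the GRCm38.p6 assembly, each with the 250 bases before an annotated start, 5′ to 3′ on the strand of the gene. Capitals mark GGGCGG (the GC box), and also CCAAT (the CCAAT box), and CACGTG (an E-box), and TATAAA (the TATA box), searched on both strands. The Slc25a1 stretch is chr16:17928220-17928469 on the minus strand, Slc25a20 is chr9:108661886-108662135 on the plus strand, Slc25a5 is chrX:36795347-36795596 on the plus strand and Slc25a21 is chr12:57160644-57160893 on the minus strand.
Slc25a1 promoter: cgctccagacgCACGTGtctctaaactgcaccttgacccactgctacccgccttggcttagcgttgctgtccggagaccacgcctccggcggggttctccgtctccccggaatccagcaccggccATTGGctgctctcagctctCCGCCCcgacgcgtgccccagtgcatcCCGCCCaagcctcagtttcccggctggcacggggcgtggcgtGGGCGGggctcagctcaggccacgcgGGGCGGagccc
Slc25a20 promoter: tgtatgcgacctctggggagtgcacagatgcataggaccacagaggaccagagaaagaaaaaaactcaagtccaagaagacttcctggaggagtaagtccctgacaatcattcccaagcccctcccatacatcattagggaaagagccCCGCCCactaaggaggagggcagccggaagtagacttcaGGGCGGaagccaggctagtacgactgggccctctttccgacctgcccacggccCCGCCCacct
Slc25a5 promoter: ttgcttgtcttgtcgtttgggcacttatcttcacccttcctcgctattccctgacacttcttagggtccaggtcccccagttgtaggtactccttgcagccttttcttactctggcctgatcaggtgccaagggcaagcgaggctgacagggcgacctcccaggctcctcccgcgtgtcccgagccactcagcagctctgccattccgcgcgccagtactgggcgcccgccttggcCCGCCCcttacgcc
Slc25a21 promoter: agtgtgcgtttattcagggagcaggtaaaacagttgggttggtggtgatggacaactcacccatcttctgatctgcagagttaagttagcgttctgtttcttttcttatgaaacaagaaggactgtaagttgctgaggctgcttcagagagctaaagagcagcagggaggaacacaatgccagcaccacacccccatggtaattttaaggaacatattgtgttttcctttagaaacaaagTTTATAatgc
Slc25a1 held 4 GC boxes, 1 E-box and 1 CCAAT box, and Slc25a20 held 3 GC boxes. Slc25a5 held 1 GC box, 14 bases before the start. Slc25a21 has 2 annotated starts, and the 1 shown holds the only TATA box found in the carrier windows searched, 10 bases before the start and on the opposite strand.

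Of the 25 members, 22 had an entry with 30 such windows in all, since some genes have several starts. A GC box was found in 20 of the 30 windows (66.7%), compared with 32.7% of all 32851 windows of the same length. The E-box was found in 5 windows (16.7%, of Slc25a1, Slc25a13, Slc25a14 and Slc25a15), compared with 6.02% of all windows. The CCAAT box was found in 12 windows (40.0%, compared with 33.85% of all) and the TATA box in 1 (3.33%, compared with 12.4% of all). The median content of G and C was 57.0% in the carriers and 52.4% in all windows. Of the 15 windows of carriers detected on all 9 arrays (12 genes) 12 held a GC box. Of the 5 windows of carriers detected on at most 1 array (4 genes) 2 did. The median content of G and C was 57.6% in the former windows and 63.6% in the latter. Windows of a gene overlap in part, and a match of letters is a description, not a binding site.

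The array detected a core of the family in every mouse. Of the 25 members, 12 (48.0%) were detected on all 9 arrays, compared with 37.6% of the 15674 genes. These were the carriers of citrate (Slc25a1), phosphate (Slc25a3), ADP and ATP (Slc25a5), oxoglutarate and malate (Slc25a11), aspartate and glutamate (Slc25a12 and Slc25a13), ornithine (Slc25a15), glutamate (Slc25a22), ATP-Mg and phosphate (Slc25a24), acylcarnitine (Slc25a20) and iron (Slc25a28), and Slc25a16, which is linked to coenzyme A. A further 8 were detected on 3 to 8 arrays and Ucp2 on 1. The remaining 4 members (16.0%, compared with 20.5% of all genes), Slc25a21, Slc25a27, Slc25a29 and Ucp1, were detected on no array.

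**Figure D1:**
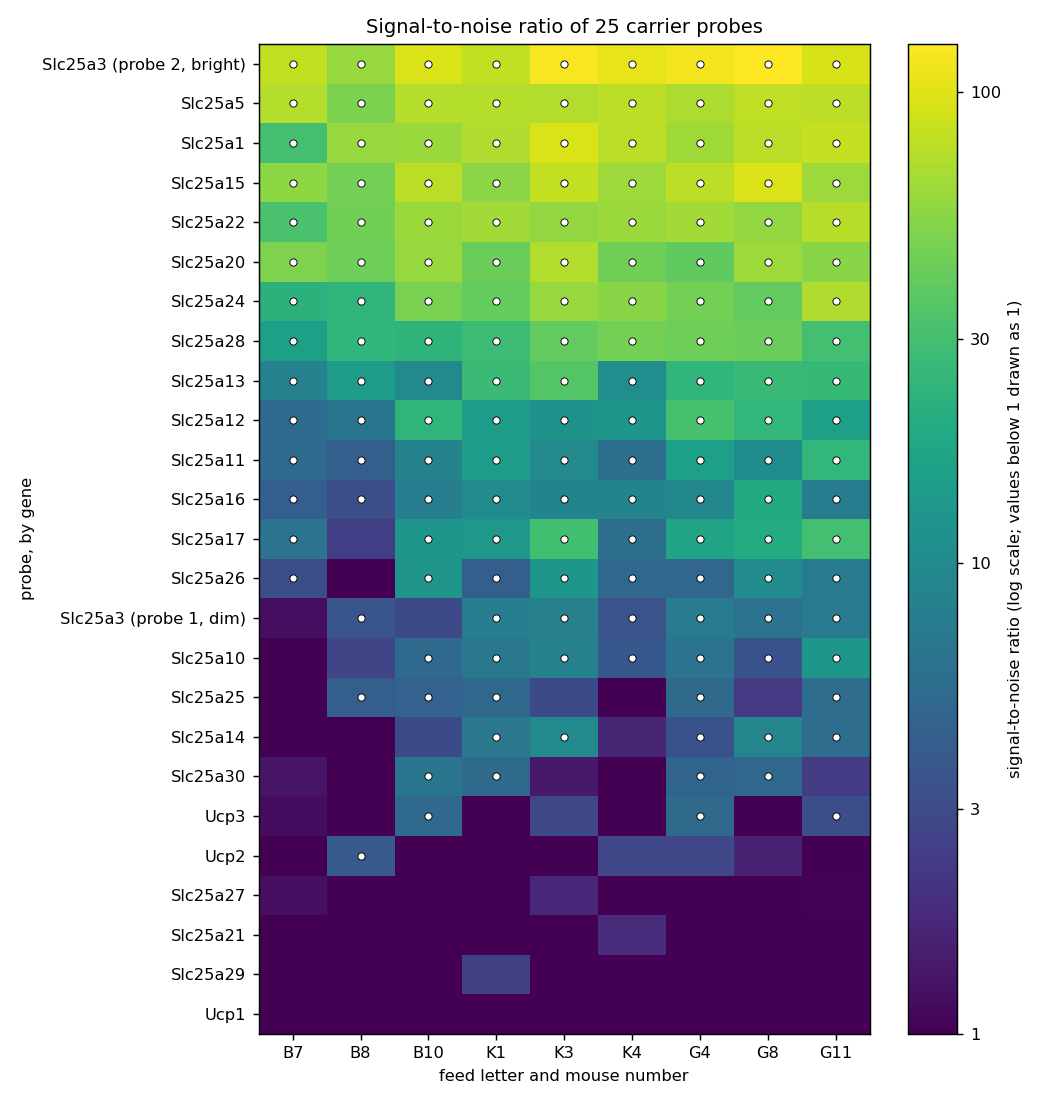
Signal-to-noise ratio of 25 of the 26 probes (rows, by gene) in each mouse (columns, feed letter and mouse number), coloured on a log scale, with a white dot where the probe was detected. The 12 genes detected in every mouse fill the top of the plot, and the uncoupling proteins lie among the 6 lowest.

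The number of members detected differed between mice. On feed B, 14 members were detected in mouse 7, 14 in mouse 8 and 19 in mouse 10. On feed K the numbers were 19 (mouse 1), 17 (mouse 3) and 16 (mouse 4), and on feed G they were 19 (mouse 4), 17 (mouse 8) and 18 (mouse 11). Mice 7 and 8 on feed B also had the lowest shares of all genes detected, 48.2% and 44.9%, and the other 7 arrays ranged from 53.4% to 61.4%. Among those 7 the numbers did not run in parallel, since mouse 3 on feed K and mouse 8 on feed G had the highest shares of all genes and 17 members each. Where a spot has a ratio below 1, its deposited signal equals its standard deviation and is noise, which is why levels of the dim members are given with their detection. The sequences of the probes were not used here, so that binding of a probe to a related carrier was not checked. Of the 26 probes, 20 carry a RefSeq accession of the gene they are named for, and 6 (among them those for Slc25a10, Slc25a11, Slc25a17, Slc25a30 and Ucp2) carry none and are known by symbol alone.

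Among the carriers of adenine nucleotides and phosphate, 4 of 6 members were detected in every mouse, and Slc25a17 in all but mouse 8 on feed B. Slc25a5, the widely used ADP/ATP carrier, had a log2 signal of 16.05, 16.57 and 16.57 on feed B, 16.89, 17.03 and 16.54 on feed K, and 16.62, 16.84 and 16.52 on feed G. Mouse 7 on feed B was the lowest, and the feeds overlapped. No probe was matched to Slc25a4, the ADP/ATP carrier of heart and muscle. Slc25a24, an ATP-Mg and phosphate carrier regulated by calcium, had 12.46, 12.65 and 12.55 on feed B, 12.57, 12.30 and 12.51 on feed K, and 12.39, 12.01 and 12.99 on feed G. Its lowest and highest mouse were both on feed G. Slc25a16 had 8.73, 9.38 and 9.48 on feed B, 9.17, 9.39 and 9.16 on feed K, and 9.23, 9.37 and 8.64 on feed G, and again the feeds overlapped. Of the dimmer members, Slc25a17, a carrier of the peroxisome, ranged from 8.53 to 10.16 with 8 arrays detected. Slc25a25, a relative of Slc25a24, ranged from 6.77 to 8.98 with 5 arrays detected.

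The 2 probes of Slc25a3, which brings phosphate into the matrix for ATP synthesis, gave different pictures. The brighter probe was detected on all 9 arrays, at signal-to-noise ratios of 60.5 to 127, and its log2 signal was 15.32, 15.36 and 15.72 on feed B, 15.68, 15.82 and 15.61 on feed K, and 15.33, 15.47 and 15.41 on feed G. It varied 1.41-fold over the mice (SD of log2 signal 0.19). Its feed K mice all lay above its feed G mice, an order that 7.35% of all genes tested showed. The dimmer probe was detected on 7 arrays, at ratios of 1.19 to 8.26, and its log2 signal was 6.72, 9.21 and 7.95 on feed B, 9.63, 9.12 and 8.26 on feed K, and 8.55, 8.42 and 8.84 on feed G. It varied 7.52-fold (SD 0.85), with mouse 7 on feed B the lowest at a ratio of 1.19. The average of both, as used for the gene, varied 3.11-fold with an SD of 0.47.

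**Figure D2:**
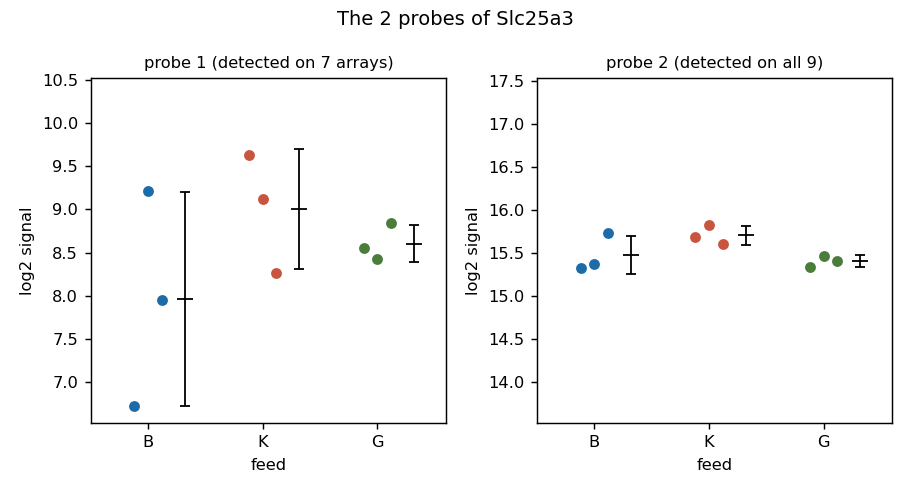
Log2 signal of the 2 probes of Slc25a3 in each mouse (points, by mouse number from left to right within a feed), with the mean and SD of 3 mice per feed as bars; both axes span 4 log2 units. The dimmer probe spreads over 7.52-fold and the brighter over 1.41-fold.

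All 4 members of the malate-aspartate and glutamate group were detected in every mouse, and their SDs of log2 signal, between 0.24 and 0.35, lie close together. Slc25a12, an aspartate and glutamate carrier regulated by calcium, had 9.75, 9.80 and 9.62 on feed B, 9.62, 9.64 and 9.90 on feed K, and 10.39, 9.97 and 9.78 on feed G. Its SD of 0.24 was the lowest of the 12 carriers with the probes of Slc25a3 averaged, the brighter of which had 0.19 alone, and mouse 4 on feed G stood above the rest. Slc25a13, its counterpart known as citrin, had 10.36, 10.26 and 9.60 on feed B, 10.51, 10.30 and 9.94 on feed K, and 9.84, 9.91 and 9.84 on feed G. The feed G mice lay close together (SD 0.04, n = 3) and all below the feed K mice, and the feed B mice spanned both. Slc25a11, which exchanges oxoglutarate for malate, had 9.99, 9.72 and 9.10 on feed B, 9.53, 9.02 and 9.45 on feed K, and 9.27, 9.34 and 9.47 on feed G. Slc25a22, a glutamate carrier, had 13.06, 13.69 and 13.35 on feed B, 13.83, 13.15 and 13.82 on feed K, and 13.26, 13.17 and 13.98 on feed G. For both genes the feeds overlapped over most of their range.

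Of the di- and tricarboxylate carriers, only Slc25a1 was detected throughout. Slc25a1 exports citrate, the carbon source of fatty acid and sterol synthesis, and had 11.83, 12.85 and 12.75 on feed B, 12.95, 12.96 and 13.55 on feed K, and 12.47, 11.86 and 13.01 on feed G. The 3 mice on feed K all lay above the 3 on feed B, and feed G spanned both. Its range was 3.28-fold, the widest of the 12 carriers. Slc25a10, which exchanges malate or succinate for phosphate, was detected on 1 array of feed B and on all 6 of feeds K and G, with log2 signals from 6.75 to 8.79. Slc25a21, a carrier of oxodicarboxylates, was not well above background on any array.

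Slc25a15 and Slc25a20 moved in different ways between mice. Slc25a15, the ornithine carrier, had 13.72, 14.06 and 13.81 on feed B, 14.33, 14.43 and 13.99 on feed K, and 14.03, 13.99 and 13.51 on feed G. Its lowest mouse was mouse 11 on feed G, and its range was 1.89-fold. Slc25a20, which carries acylcarnitine into the matrix for fat oxidation, had 12.22, 12.28 and 11.99 on feed B, 11.82, 11.79 and 12.11 on feed K, and 11.07, 11.27 and 12.20 on feed G. Mice 4 and 8 on feed G were the lowest of the 9, and mouse 11 on the same feed lay among the feed B mice. Slc25a29, a carrier of basic amino acids, was detected on no array.

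In the group of metals and cofactors, Slc25a28 (mitoferrin 2, an iron importer) was detected in every mouse, with 11.72, 12.48 and 11.76 on feed B, 12.53, 11.77 and 12.80 on feed K, and 12.43, 12.04 and 11.60 on feed G. The lowest mouse was on feed G and the highest on feed K, and all 3 feeds overlapped. Slc25a26, which brings in S-adenosylmethionine, was detected on 8 arrays, and mouse 8 on feed B, the exception, had a signal-to-noise ratio of 0.05.

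The uncoupling protein branch was detected least, and none of its 6 members was detected on all arrays. Ucp1, which makes heat in brown fat, had signal-to-noise ratios from -4.79 to 0.33 and was detected on no array, and its spot failed on the array of mouse 3 on feed K. Its log2 signals, all noise, were 6.86, 6.33 and 6.90 on feed B, 6.70 and 6.85 on feed K, and 6.42, 6.22 and 6.42 on feed G. Of the brown fat markers, Elovl3 was detected on 0 arrays, Prdm16 on 1 and Cidea on 5. Ucp2, known from immune cells and the pancreatic islet, was detected only in mouse 8 on feed B, at a ratio of 3.92, and its log2 signals were 5.24, 7.59 and 5.80 on feed B, 6.05, 5.05 and 7.70 on feed K, and 7.19, 5.96 and 4.29 on feed G. Most of these values are noise, and the next highest ratios, 2.82 and 2.79, fell just under the limit. Of the 4 macrophage markers on the array, Emr1 and Csf1r were detected on all 9 arrays, Itgam on 5 and Cd68 on 4. For feed G minus feed K, the log2 differences were 0.23 for Emr1, 0.44 for Itgam, -0.46 for Csf1r and 1.26 for Cd68. Only Cd68, detected on 0 arrays of feed K, had an unadjusted p below 0.05 (limma, 0.0328, adjusted p = 0.960), as did 4.54% of all genes tested. Ucp3, the uncoupling protein of skeletal muscle, was detected on 3 arrays, those of mouse 10 on feed B (ratio of 5.21), mouse 4 on feed G (5.33) and mouse 11 on feed G (3.18). Its log2 signals were 5.25, 7.21 and 7.91 on feed B, 6.54, 6.81 and 5.78 on feed K, and 7.47, 5.64 and 6.89 on feed G. The skeletal muscle markers Ckm and Mylpf were detected on 8 and 7 arrays, Acta1 on 3 and Tnnt3 on 0. Ucp3 lies beside Ucp2 in the RefSeq gene order. No array detected both, but with 1 array for Ucp2 and 3 for Ucp3 this cannot show whether the genes differ.

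Slc25a14, Slc25a27 and Slc25a30 are relatives of the uncoupling proteins, the first and second of them best known from the brain and the last from the kidney. Slc25a14 was detected on 0 arrays of feed B, 2 of feed K and 3 of feed G. Its log2 signals were 6.52, 6.35 and 7.91 on feed B, 8.73, 8.25 and 7.45 on feed K, and 7.58, 7.69 and 8.20 on feed G. The highest feed B mouse, with a ratio of 2.97, lay above the lowest mice of feeds K and G, so that the feeds overlapped. By the mean of these signals, feed K was 2.32-fold and feed G 1.86-fold the level of feed B. These are not lower bounds, since the feed B spots, at ratios of 0.88, 0.44 and 2.97, were not detected. With spots of a ratio below 1 left out, the log2 difference for feed K minus feed B was 0.23. Slc25a30 was detected on 4 arrays and ranged from 5.22 to 8.16, and Slc25a27 on none.

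**Figure D3:**
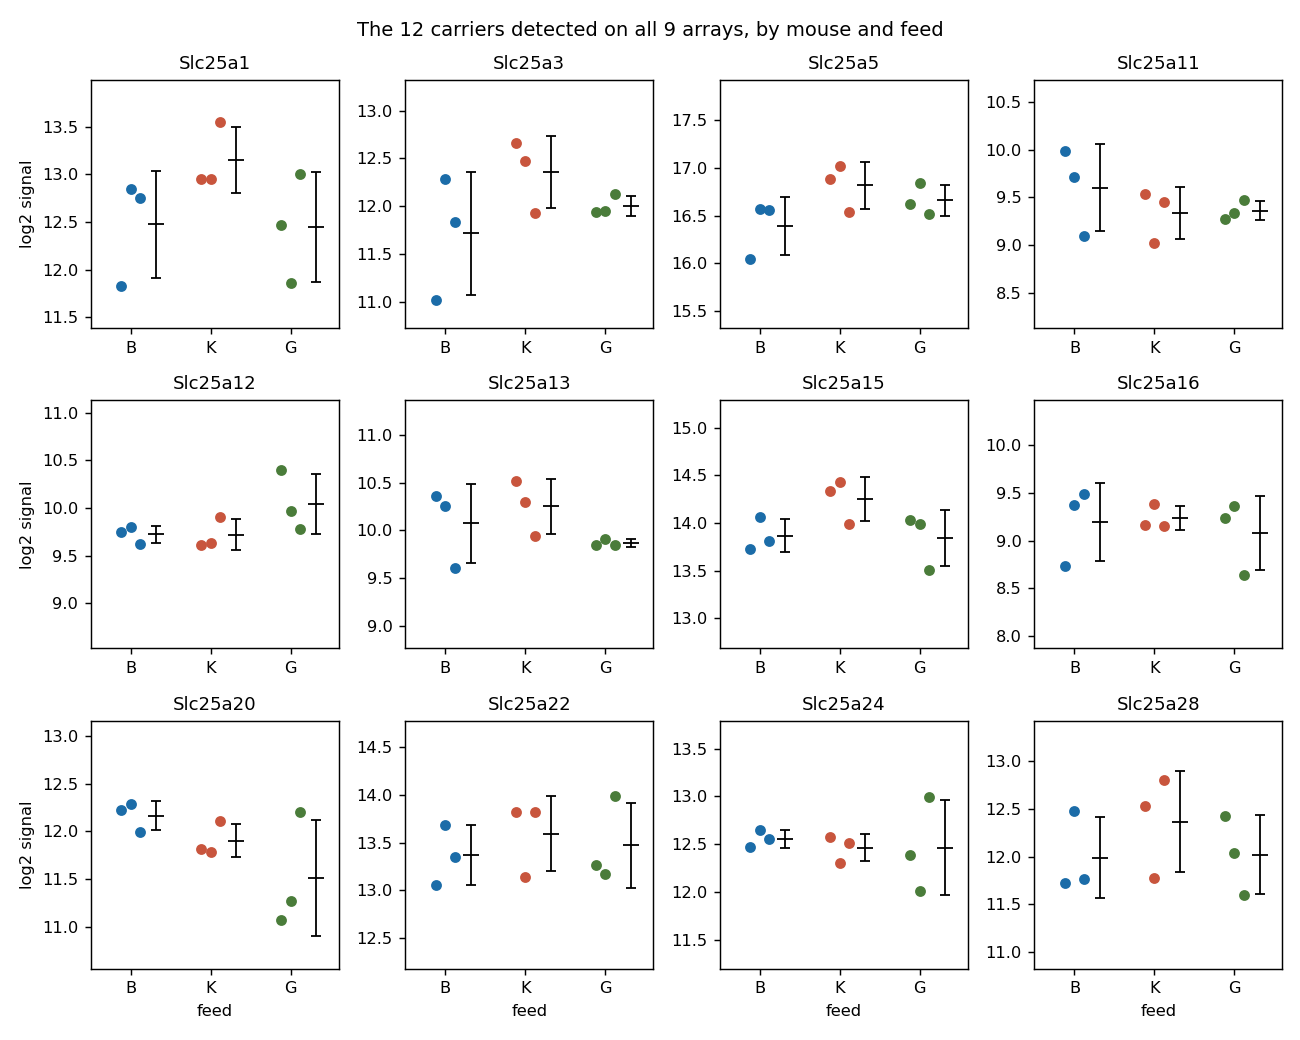
Log2 signal of the 12 carriers detected on all 9 arrays, a panel per gene, with a point per mouse (by mouse number from left to right within feeds B, K and G) and the mean and SD of 3 mice per feed as bars; every vertical axis spans 2.6 log2 units. Slc25a1 and Slc25a3 spread widest, with ranges of 3.28-fold and 3.11-fold, and Slc25a12 least, with 1.71-fold; Slc25a3 is drawn as the average of its 2 probes, and its brighter probe alone spans 1.41-fold.

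The study behind these arrays searched for genes of even level, by their coefficient of variation and a test across experiments on several platforms, followed by RT-qPCR. A different measure was used here, the SD of log2 signal over these 9 mice. On this measure the carriers lay on both sides of the middle of all genes. The median SD of log2 signal over the 9 mice was 0.30 for the 12 carriers detected on all arrays and 0.29 for the 5887 genes detected on all arrays, and 8 of the 12 carriers lay above the latter. The median SD within feeds was 0.32 and 0.28. The range was at most 2-fold in 8 of the 12 carriers (66.7%), compared with 57.9% of all such genes. Slc25a12 (SD 0.24, n = 9 mice) lay at percentile 36.1 of all genes detected on all arrays, Slc25a24 (SD 0.27) at 42.5, Slc25a5 (SD 0.28) at 46.8, Slc25a15 (SD 0.28) at 47.7 and Slc25a16 (SD 0.30) at 50.9. The least even were Slc25a1 (SD 0.56) at 88.4, Slc25a3 (SD 0.47) at 80.8, Slc25a28 (SD 0.44) at 77.4, Slc25a20 (SD 0.43) at 76.2 and Slc25a22 (SD 0.35) at 63.0. The place of Slc25a3 rests on averaging its 2 probes, since by its brighter probe alone (SD 0.19) it is the most even of the 12. With each array scaled to its median the SD rose to 0.46 for the carriers and 0.44 for all genes.

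**Figure D4:**
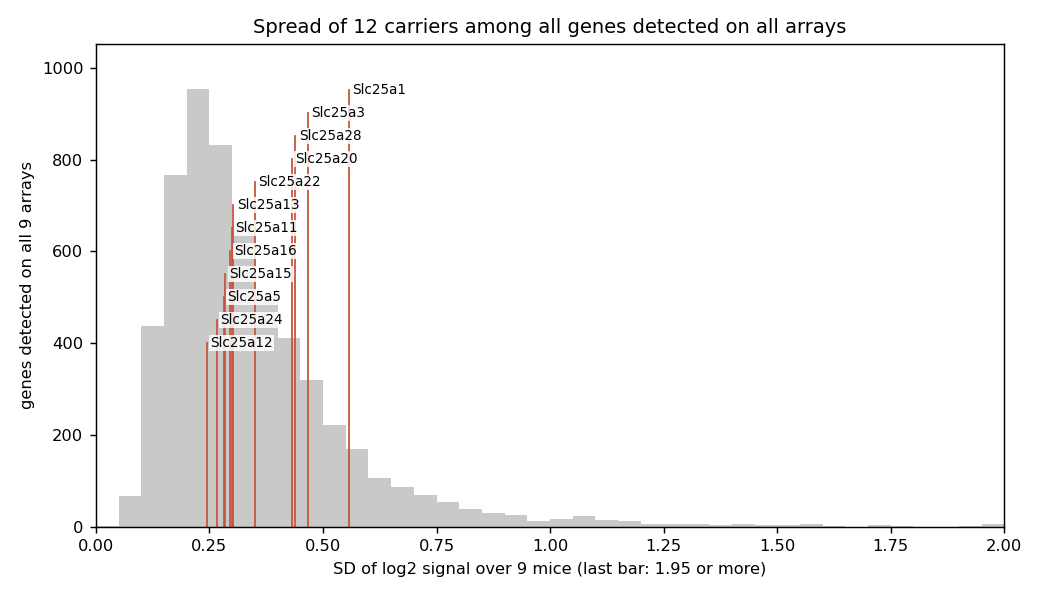
Number of genes (bars) against the SD of their log2 signal across the 9 mice (the 5887 genes detected on all arrays), with the 12 carriers as labelled lines whose heights carry no value. With the probes of Slc25a3 averaged, the carriers run from 0.24 (Slc25a12) to 0.56 (Slc25a1), on both sides of the median of 0.29.

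The carriers did not all follow the same mouse. Mouse 7 on feed B was the lowest of the 9 for 4 of the 12 carriers (Slc25a1, Slc25a3, Slc25a5 and Slc25a22), and it was the lowest for 18.3% of all genes detected on all arrays. Its median deviation from the mean of the mice was -0.33 log2 units over the carriers and -0.04 over all such genes. Mouse 11 on feed G was the lowest for 3 carriers (Slc25a15, Slc25a16 and Slc25a28) and the highest for 2 (Slc25a22 and Slc25a24). Among all such genes it was the lowest for 17.3% and the highest for 13.3%. These are descriptions of single mice, with no test.

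No carrier passed the test for a difference between feeds. In limma's moderated test over 9652 genes detected on at least 3 arrays, 0 of the 20 carriers tested had a Benjamini-Hochberg adjusted p below 0.05 in the F test over the 3 feeds, where 0.0% of all genes were called. The same held for feed K against B, feed G against B and feed G against K, each with 0.0% of all genes called. The smallest adjusted p of a carrier was 0.903 in the F test, 0.784 for K against B, 0.858 for G against B and 0.960 for G against K. At an unadjusted p below 0.05 the counts of carriers were 0 in the F test (5.37% of all genes), 1 for K against B (6.31%), 0 for G against B (5.74%) and 0 for G against K (4.54%). An exact permutation F test over the 280 splits of the mice, run for the 12 carriers detected on all arrays, gave no p below 0.125, and the smallest p it can give is 0.00357.

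The carrier past the unadjusted limit was Slc25a14, whose log2 difference for feed K minus feed B was 1.21 (SE 0.47, limma, unadjusted p = 0.0329, adjusted p = 0.784). All 3 feed B arrays lacked detection of this gene, and with spots of a ratio below 1 left out the difference was 0.23 (unadjusted p = 0.672 by limma). Among the carriers detected in every mouse, the smallest p of the F test belonged to Slc25a20, with 12.17 ± 0.16 on feed B, 11.90 ± 0.18 on feed K and 11.51 ± 0.60 on feed G (mean and SD of log2 signal, n = 3). Its difference for feed G minus feed B was -0.65 (limma, unadjusted p = 0.0595, adjusted p = 0.858), and its size depended on the mice and on the scaling. Without mouse 11 on feed G it was -0.99 (unadjusted p = 0.00189 by limma, not passing adjustment), and without mouse 4 on feed G it was -0.43. Median scaling of the arrays gave -0.08, where the median of all genes lay at 0.53, and the table of the whole series gave -0.34, where that median was 0.30.

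Slc25a1 differed by 0.67 (SE 0.38) for feed K minus feed B and by -0.70 for feed G minus feed K, with unadjusted limma p of 0.115 and 0.101. Without mouse 8 on feed G the latter difference was -0.41, and without mouse 11 on feed G it was -0.98 (unadjusted p = 0.0377 by limma, not passing adjustment). Among the 20 carriers tested it alone had all feed K mice above all feed B mice, an order that 6.28% of all genes tested showed. With the probes of Slc25a3 averaged, Slc25a13 alone of the 20 had all feed G mice below all feed K mice, an order shown by 7.35% of genes. The brighter probe of Slc25a3 taken by itself also had that order. The difference of Slc25a13 was -0.38 (unadjusted p = 0.163 by limma), or -0.25 without mouse 1 on feed K, -0.24 with median scaling and -0.20 by the series table. None of the 20 carriers tested separated in the other directions. There the shares of genes were 3.71% for feed K below B, 6.35% for feed G above B, 4.66% for feed G below B and 6.35% for feed G above K.

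Slc25a15, Slc25a5, Slc25a3 and Slc25a12 had an unadjusted p of limma's F test between 0.176 and 0.259, and Slc25a28 of 0.521. For feed K minus feed B, Slc25a5 differed by 0.43 (SE 0.22), Slc25a3 by 0.64 (SE 0.34), Slc25a15 by 0.38 (SE 0.22) and Slc25a28 by 0.38 (SE 0.35). By its brighter probe alone Slc25a3 differed by 0.23. Without mouse 7 on feed B the difference was 0.29 for Slc25a3, 0.25 for Slc25a5 and 0.25 for Slc25a28. Without mouse 8 on feed B it was 0.95 for Slc25a3 (limma, unadjusted p = 0.0211, not passing adjustment) and 0.62 for Slc25a28. Slc25a28 ran from 0.16 without mouse 4 to 0.68 without mouse 3 on feed K. Median scaling gave 0.76 for Slc25a5 and 0.82 for Slc25a28 (limma, unadjusted p = 0.0418 and 0.0173, neither passing adjustment), where the median of all genes was 0.41. For feed G minus feed K, Slc25a12 differed by 0.33, or 0.15 without mouse 4 on feed G and 0.53 by the series table, and Slc25a15 by -0.41, or -0.24 without mouse 11 on feed G and -0.26 with median scaling. The standard error of a difference was 0.35 in the median of the 20 carriers.

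**Figure D5:**
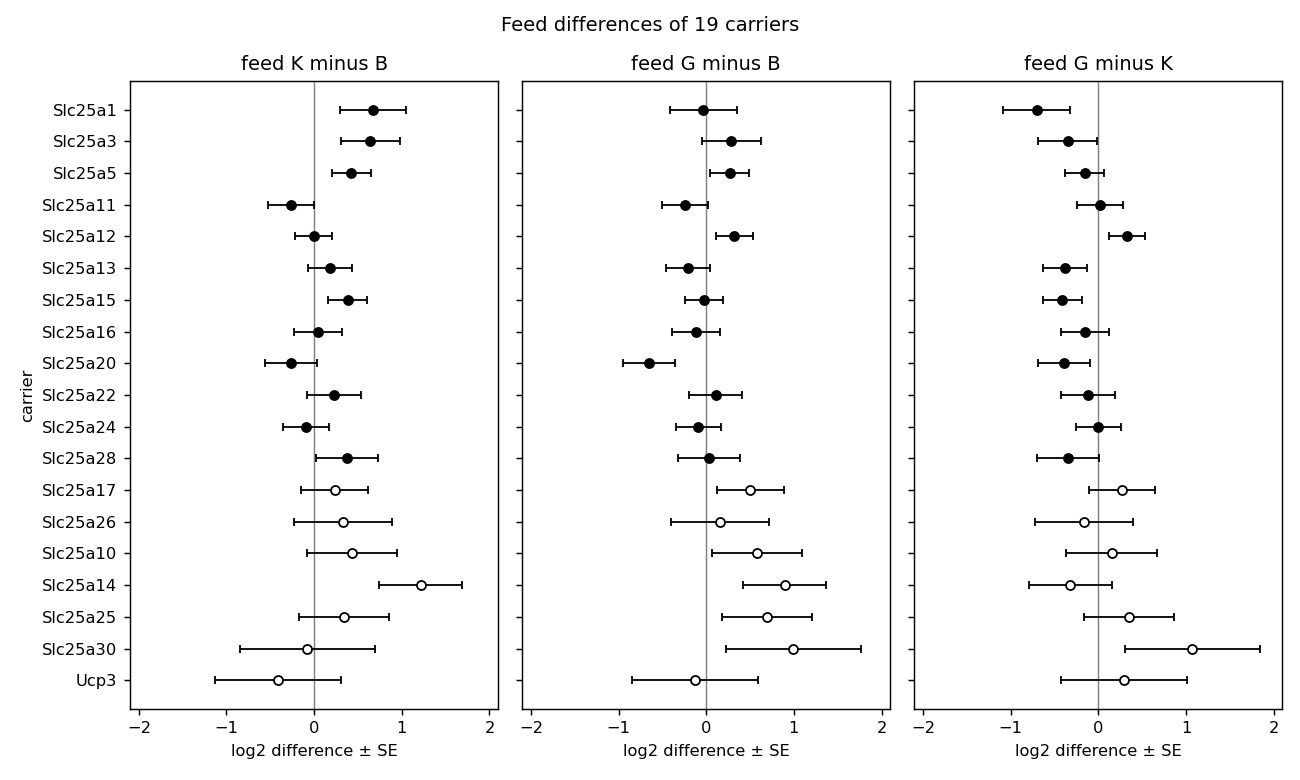
Log2 difference between feeds (points) with its limma standard error (bars) for 19 of the 20 carriers tested, in 3 panels for K minus B, G minus B and G minus K; filled points are carriers detected on all 9 arrays and open points those detected on 3 to 8. The filled points lie between -0.70 (Slc25a1, G minus K) and 0.67 (Slc25a1, K minus B), and the open points have the longest bars.

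Over the 20 carriers, 14 had a higher mean on feed K than on feed B, where 56.9% of all genes did, and the median difference was 0.28, compared with 0.05 over all genes. With each array scaled to its median, these medians were 0.48 and 0.41, and they were 0.26 and 0.21 in the table that the authors made for the whole series, so that the carriers then lay close to the shift of all genes. The median of the carriers was 0.13 without mouse 7 on feed B or mouse 1 on feed K and 0.51 without mouse 10 on feed B. It was 0.11 with spots of a ratio below 1 left out. For feed G minus feed B the median was 0.07 over the carriers and 0.06 over all genes, and for feed G minus feed K it was -0.16 and -0.01. With each mouse left out in turn, the carriers' median for G minus B ran from -0.05 without mouse 7 on feed B to 0.21 without mouse 8 on feed G, and it was -0.03 without a filter on detection or among the 12 carriers detected on all arrays. For G minus K it ran from -0.24 without mouse 8 on feed G to -0.07 without mouse 1 on feed K. Its sign turned with median scaling, to 0.01, where the median of all genes rose to 0.11 and still lay above it. The 3 comparisons share mice, so they are not independent of each other.

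A further 14 genes of the family were on the array under older symbols, matched through RefSeq accessions for 13 and through a synonym for 1. Of these, 9 were detected on all 9 arrays, and 12 were tested with none passing adjustment. At an unadjusted p below 0.05 by limma, 1 of the 12 passed for K against B (6.31% of all genes). For G against B it was 1 (5.74%), and for G against K 1 (4.54%). B430110G05Rik, now Slc25a44, a carrier of branched-chain amino acids, had the most even level among them, with an SD of 0.11, its highest mouse being 1.24-fold above its lowest. B230315F11Rik, now Slc25a40, which serves glutathione import, had 8.38, 8.32 and 7.56 on feed B, 8.73, 8.96 and 8.42 on feed K, and 8.64, 8.78 and 8.98 on feed G. All mice of feeds K and G lay above those of feed B, orders that 6.28% and 6.35% of all genes tested showed. The differences were 0.62 and 0.71 in the mean (limma, unadjusted p = 0.0491 and 0.0288, adjusted p = 0.786 and 0.841). C330005L02Rik, now Slc25a36, a carrier of pyrimidine nucleotides, was lower on feed G than on feed K by a log2 difference of -0.81 (limma, unadjusted p = 0.0288, adjusted p = 0.96). The levels of Slc25a40 and Slc25a36 are averages of 2 probes each, which were not examined apart. 1700034J06Rik, now Slc25a31, the ADP/ATP carrier of the testis, was detected on 2 arrays, with 6.64, 6.78 and 5.66 on feed B, 7.03, 6.11 and 7.95 on feed K, and 7.27, 6.47 and 5.52 on feed G.

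Of the genes that work with the carriers, 36 were on the array and 31 were tested, with 2 at an unadjusted p below 0.05 in any comparison. The outer membrane channels Vdac1, Vdac2 and Vdac3 were detected on all arrays, and none of the 3 was among them. Nor were the 5 tested members of the import route (Timm22, Timm10, Tomm20, Tomm40 and Tomm7), the 4 of the carnitine shuttle and the 5 of the urea cycle. The lists for citrate export, sideroflexins, the pyruvate carrier, ATP synthase and Ppif, Mtch1 and Mtch2 held none either. Of the malate-aspartate shuttle enzymes, 2 of 3 tested had an unadjusted p below 0.05 for feed K against B, both higher on K. In either direction 6.31% of all genes passed, and neither of the 2 passed adjustment. The other tested enzyme, Mdh1, differed by 0.04 (SE 0.42, limma, unadjusted p = 0.935), and Got2 was detected on 1 array. Got1, the cytosolic aspartate transaminase, had 11.68, 11.60 and 11.84 on feed B, 12.36, 12.06 and 12.54 on feed K, and 12.10, 12.17 and 11.62 on feed G. Its feed K mice all lay above its feed B mice, an order that 6.28% of all genes tested showed. The log2 difference was 0.61 (SE 0.22, limma, unadjusted p = 0.0229, adjusted p = 0.784). Mdh2, the mitochondrial malate dehydrogenase, had 16.85, 17.26 and 16.99 on feed B, 17.35, 17.48 and 17.61 on feed K, and 17.25, 17.11 and 17.20 on feed G. Its difference was 0.45 (SE 0.18, limma, unadjusted p = 0.0376, adjusted p = 0.786), again with no overlap of feeds K and B. Mdh1 and Mdh2 also had all feed G mice below all feed K mice, an order that 7.35% of all genes tested showed.

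The samples also differed in markers of gut region and of cell types. All 7 enterocyte markers on the array were detected in every mouse, whereas of the pancreas markers Prss2 and Pnlip were detected on none and Amy2 on 2 arrays, and of the testis markers Tnp1 was detected on none and Prm2 on 1. All 7 enterocyte markers had a higher mean on feed K than on feed B, where 56.9% of all genes did. Of these markers 2 had an unadjusted p below 0.05, compared with 6.31% of all genes, and none passed adjustment. The glucose transporter Slc5a1 had 15.03, 15.54 and 15.59 on feed B, 16.60, 16.49 and 16.49 on feed K, and 16.68, 16.62 and 15.72 on feed G. All mice of feeds K and G lay above those of feed B, orders that 6.28% and 6.35% of all genes tested showed. The differences were 1.14 and 0.95 in the mean (limma, unadjusted p = 0.00417 and 0.0109, adjusted p = 0.753 and 0.729). For G against B, 5.74% of all genes had an unadjusted p below 0.05. The fructose transporter Slc2a5 had a log2 difference of 1.41 for feed K minus feed B (limma, unadjusted p = 0.0361), also without overlap, and the apolipoprotein Apoa4 differed by 0.59. These differences run the same way as the carriers' median for feed K minus feed B, and their part in it was not tested. The ileal bile acid binding protein Fabp6 had 15.81, 4.67 and 17.84 on feed B, 8.92, 12.19 and 11.81 on feed K, and 8.10, 8.96 and 19.51 on feed G, so that mice 7 and 10 on feed B and mouse 11 on feed G stood far above the rest. The ileal bile acid transporter Slc10a2 was highest in mouse 11 on feed G (12.66) and mouse 10 on feed B (12.05). It had 9.46 in mouse 7 on feed B and lay between 6.53 and 9.73 in the other 6. Cd79a, a B cell marker, was at 7.54 in mouse 1 and 8.02 in mouse 3 of feed K, below the range of 9.27 to 10.82 of the remaining 7 mice. The summed level of 6 smooth muscle markers was between 16.01 and 16.77 in all mice. Without the 3 mice of high Fabp6, which leaves 1 mouse on feed B, the median of the carriers for feed K minus feed B was 0.06, with 10 of 19 positive. Slc25a20 then differed by -1.11 for feed G minus feed B and Slc25a3 by 0.06 for feed K minus feed B, and Slc25a28 turned from 0.38 to -0.11. The part of gut region in the carrier differences was not tested beyond these values.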

How the data were processed

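RNA of 9 jejunal samples was hybridised to single-colour chemiluminescent arrays of Applied Biosystems, 1 mouse per array. For each array the authors deposited a signal intensity that is background corrected and spatially normalised, together with the standard deviation of the spot, a signal-to-noise score and a flag score for quality. The submitters' processing notes name RMA, without a version. A second table deposited by the authors covers all samples, and its linear signal equals the assay-normalised signal of the array files in all 297108 values. Its columns are not centred, and what that normalisation divides by is unknown. The files name no genome build. A carrier and a cell type marker are counted but not reported here by name.

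After the methods of the study, signals were quantile normalised by the arithmetic mean, without failed spots (flag above 5000), and their log2 values were averaged per symbol. Detection was a signal-to-noise ratio that reached 3. Feeds were compared with lmFit and eBayes of limma 3.58.1 (R 4.3.3, all 9 arrays, no covariates) over the 9652 genes detected on at least 3 arrays, with Benjamini-Hochberg adjustment over all of them. No block was fitted, since the files give no slide or scan shared by several arrays. Tables and exact permutation tests used Python 3.11.15, numpy 2.4.6 and pandas 2.3.3. Simulated data with 200 changed genes served to test the fits. Precision is limited by the number of arrays. The samples are separate mice, but litters are not given.

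The members and lists were chosen with earlier results of these data known. Values of all mice are given for carriers detected on all 9 arrays that have the 8 smallest p of the F test or the 5 smallest or 5 largest SDs, for the uncoupling proteins and ADP/ATP carriers, and for Slc25a3 by probe. Slc25a11, Slc25a14, the genes under older symbols and single cell type markers were named after their values were seen, and partner genes at an unadjusted p below 0.05. The alternatives were the series table, median scaling of each array, only the brightest probe, failed spots kept, a floor at percentile 5, other detection filters, limma's trend and leaving out each mouse, and, chosen after seeing the data, leaving out spots of a ratio below 1 or the 3 mice of high Fabp6.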

Additional observations from a re-analysis of the deposited data

Results flagged for a closer look

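Among the 12 carriers detected on all arrays, a mouse far from the other 8 was found for 2, where its gap to the nearest mouse, as a share of the whole range, exceeded Dixon's critical value. For Slc25a12, mouse 4 on feed G was the highest, at 10.39, and the gap was 0.550 of the range of the 9 mice. For Slc25a3, mouse 7 on feed B was the lowest, at 11.02, and the gap was 0.499 of the range. The low value of Slc25a3 came with a signal-to-noise ratio of 1.19 of its dimmer probe, while the brighter probe read 15.32 in that mouse and 15.33 in mouse 4 on feed G. The same rule marked 7.58% of the 5887 genes detected on all arrays, and chance alone gives such a gap in about 1 of 20 genes.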

How the results depend on the processing

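No carrier was called in any comparison with other scalings, detection filters, probe rules or limma's trend, or with each mouse left out in turn. The only call came without the 3 mice of high Fabp6, where Slc25a26 passed for feed K against B (1 carrier), as did 107 of all 8983 genes tested (1.19%); feed B then rested on mouse 8, which is assumed to vary like the other mice and where Slc25a26 had a signal-to-noise ratio of 0.05. The median SD of the carriers detected on all arrays, 0.30, became 0.46 with median scaling and 0.42 by the series table, beside 0.44 and 0.39 over all genes, and ran from 0.29 to 0.32 when each mouse was left out. Median scaling moved the median difference of all genes to 0.41 for feed K minus B, 0.53 for G minus B and 0.11 for G minus K, and the series table moved the first and second to 0.21 and 0.30. Slc25a28 reversed without the mice of high Fabp6, to -0.11. Counts of carriers at an unadjusted p below 0.05 ran from 0 to 6 in the F test, 0 to 6 for K against B, 0 to 5 for G against B and 0 to 3 for G against K. The highest counts for the F test, G against B and G against K came without the mice of high Fabp6, where 12.7%, 13.5% and 6.98% of all genes had such a p. For K against B the count of 1 (6.31% of all genes) became 6 with median scaling (12.7%), 4 without the mice of high Fabp6 (13.3%), 2 by the series table (6.31%) and 0 with spots of a ratio below 1 left out (6.44%) or with genes detected on all arrays (5.98%). It became 0 without mouse 7 on feed B (4.72%) or mouse 1 (4.12%) or 3 (6.04%) on feed K, 2 without mouse 8 on feed B (8.38%) and 3 without mouse 4 on feed K (5.76%). The cause was not tested. Dim members are limited by their signal over background. No paired analysis was made, since the samples are separate mice and the labels give no pairs between feeds.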
